A study of Mus musculus with 17 samples.

Results

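Polycomb repressive complex 1 (PRC1) was examined through 9 genes, Rnf2, Ring1, Bmi1, Cbx2, Cbx6, Cbx7, Cbx8, Phc1 and Phc2, out of 23891 gene symbols in the expression tables. The genes were taken by symbol, and each was represented by the RefSeq transcript with the highest mean level over the 17 samples, so that 9 of the 14 RefSeq transcripts of these genes stand for them. RNA was sequenced from 4 lines of spermatogonial stem and progenitor cells (SSCs), 6 lines of multipotent adult spermatogonial-derived stem cells (MASCs), 2 embryonic stem cell (ESC) lines, 2 induced pluripotent stem (iPS) cell lines, 2 cultures of haematopoietic stem and progenitor cells (HSCs) and 1 mouse embryonic fibroblast (MEF) sample. Levels are FPKM, fragments scaled to transcript length and sequencing depth, which are per length and can therefore be compared between genes.

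SSCs came from adult mice and were expanded on MEF feeder cells in a medium with GDNF, FGF and EGF. They were of the Oct4-GFP strain (SSC.1 and SSC.2), C57Bl/6J (SSC.3) and 129mix (SSC.4). MASCs arose from SSCs during long expansion in that culture, and their lines were picked as colonies from Oct4-GFP (MASC.1 and MASC.2), 129mix (MASC.3 and MASC.4) and Gt(ROSA26)Sor-lacZ mice (MASC.5 and MASC.6). The ESC lines were Oct4-GFP (ESC.1) and 129mix (ESC.2). The iPS cell lines were made from E13.5 tetO-4F2A MEFs (129mix) with 2 µg/ml doxycycline, and the MEF sample came from E13.5 129mix embryos. HSCs were lineage-depleted C57Bl/6J bone marrow cells grown on E4ORF1 endothelial feeder cells with Kit ligand. MASCs, ESCs and iPS cells were kept on MEF feeder cells with leukaemia inhibitory factor.

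PRC1 is a family of chromatin complexes that attach ubiquitin to histone H2A and keep developmental genes silent. Every PRC1 holds a RING1 protein, which is the ubiquitin ligase, and a PCGF protein such as BMI1. In canonical PRC1 a CBX protein reads the trimethyl mark that Polycomb repressive complex 2 leaves on histone H3, and a PHC protein joins complexes to each other, whereas variant PRC1 carries RYBP or YAF2 in place of CBX. The CBX, PHC and PCGF slots can each be filled by several paralogues, and which one fills them is known to differ between pluripotent and committed cells.

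The 17 samples were first checked against markers of their cell type. All 6 SSC markers were at 1 FPKM or more in each SSC line, and all 6 pluripotency markers in each MASC, ESC and iPS cell line. So were all 6 blood markers in both HSC cultures and all 7 fibroblast markers in the MEF sample. This floor was also reached by 2 to 4 SSC markers in MASC lines and 2 to 4 pluripotency markers in SSC lines. Of the SSC markers, Zbtb16, Ret and Dazl were higher in each SSC line than in every other sample. Etv5 was at 81.05 to 127.8 FPKM in MASC lines and at 17.17, 123, 44.99 and 11.38 FPKM in SSC lines. Ddx4 was at 20.06 FPKM in SSC.2 and 24.23 FPKM in MASC.5. Gfra1 was at 35.54 FPKM in MEF, above every SSC line. The MEF sample also held 5 of the 6 blood markers at 1 FPKM or more, summing to 70.9 FPKM with Spi1 at 46.1 FPKM, against 3.98 to 22.3 FPKM in SSC, MASC, ESC and iPS cell samples and 922 to 1138 FPKM in HSCs. The HSC cultures also held 25720 to 50060 FPKM of 6 mast cell markers together, and these cultures are named below by their label only. Fibroblast markers summed to 308 to 841 FPKM in ESC.1, MASC.1, SSC.1, SSC.3 and HSC.2, to 95.04 FPKM at most in the other cultures and to 5135 FPKM in MEF. The pluripotency markers summed to 114 FPKM in SSC.1, of which Pou5f1 was 94.5 FPKM, against 1379 to 1697 FPKM in MASCs. Results that change without 1 of these libraries are given both ways below, and the part of feeder cells, mast cells or blood cells in the other results was not tested. The files give coverage in place of read counts, and 1 FPKM stood for a coverage of 1.26 to 3.23 reads per base. In such bulk samples fewer cells of a type and less RNA per cell cannot be told apart.

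The members lie on 7 chromosomes of mm9, and the 4 Cbx members sit at 2 loci. Cbx2 (chromosome 11, 118884343 to 118892584) and Cbx8 (118899750 to 118902227) are 7165 bases apart, with no other gene of the tables in between. Cbx6 (chromosome 15, 79654328 to 79664763) and Cbx7 (79746237 to 79763076) are 81473 bases apart. Rnf2 is on chromosome 1, Bmi1 on 2, Phc2 on 4, Phc1 on 6 and Ring1 on 17. The Cbx6 locus lies inside Npcd, which ends at the same base (79664763). Where their exons overlap, reads of Npcd and Cbx6 may not be told apart.

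The promoters of Cbx7, Cbx8, Phc1 and Phc2 are shown because these paralogues moved in opposite directions, and the starts that moved can be compared letter by letter. The sequences are those of RefSeq on GRCm38.p6, 250 bases before to 50 after a transcript start, 5′ to 3′ on the gene's strand. Each of the 10 promoters found for 8 of the 9 members had 1 exact match on mm9, and mm9 positions are given. Cbx2 had no entry. Capitals mark matches on either strand to 7 short motifs. These were the CCAAT box, the TATA box as TATAAA, the GC box as GGGCGG, the E-box as CACGTG, the octamer as ATTTGCAT, an ETS motif as CCGGAAG and an E2F motif as TTTGGCGC. Neighbouring matches can run together.
Cbx7, chr15:79763027-79763326, minus strand: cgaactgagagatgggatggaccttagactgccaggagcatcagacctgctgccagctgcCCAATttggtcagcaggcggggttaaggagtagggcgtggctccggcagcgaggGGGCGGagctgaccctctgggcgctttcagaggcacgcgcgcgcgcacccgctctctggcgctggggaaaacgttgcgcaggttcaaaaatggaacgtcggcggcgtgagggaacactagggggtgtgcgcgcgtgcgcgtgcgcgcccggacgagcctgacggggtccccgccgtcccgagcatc
Cbx8, chr11:118902178-118902477, minus strand: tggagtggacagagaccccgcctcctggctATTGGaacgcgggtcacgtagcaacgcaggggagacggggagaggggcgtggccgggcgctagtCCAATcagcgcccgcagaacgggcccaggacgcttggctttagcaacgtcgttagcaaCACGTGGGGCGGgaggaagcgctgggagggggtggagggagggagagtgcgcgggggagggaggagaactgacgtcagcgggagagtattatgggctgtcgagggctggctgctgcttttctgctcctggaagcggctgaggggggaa
Phc1, chr6:122290196-122290495, minus strand, start of NM_001271579: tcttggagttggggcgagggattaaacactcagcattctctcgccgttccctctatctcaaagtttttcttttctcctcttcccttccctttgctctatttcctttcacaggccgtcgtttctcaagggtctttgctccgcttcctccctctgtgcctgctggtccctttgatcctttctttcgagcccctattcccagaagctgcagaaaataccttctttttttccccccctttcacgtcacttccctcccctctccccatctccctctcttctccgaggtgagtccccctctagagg
Phc2, chr4:128404565-128404864, plus strand, start of NM_001195083: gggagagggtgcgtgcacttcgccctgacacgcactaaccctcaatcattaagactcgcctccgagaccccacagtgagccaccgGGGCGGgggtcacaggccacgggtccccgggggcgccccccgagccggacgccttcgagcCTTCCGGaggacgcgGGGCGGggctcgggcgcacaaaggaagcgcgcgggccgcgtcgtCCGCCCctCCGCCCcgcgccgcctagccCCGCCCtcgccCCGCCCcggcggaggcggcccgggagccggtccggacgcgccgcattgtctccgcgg
Phc2, chr4:128331696-128331995, plus strand, start of NM_001195130: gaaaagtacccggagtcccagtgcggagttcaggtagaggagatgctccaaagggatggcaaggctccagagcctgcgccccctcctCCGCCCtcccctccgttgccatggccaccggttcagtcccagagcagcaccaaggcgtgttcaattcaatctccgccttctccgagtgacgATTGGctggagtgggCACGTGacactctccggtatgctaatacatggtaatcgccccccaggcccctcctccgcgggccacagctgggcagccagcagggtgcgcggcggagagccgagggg

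CpG content differed among the promoters. The 10 member promoters held a median of 27 CG dinucleotides (quartiles 20 and 32.5), against 7 (quartiles 3 and 20) in all 32851 promoters of the table. The start of the short Phc2 transcript had 45, that of Cbx7 33, that of Cbx8 24, that of the long Phc2 transcript 19, that of Phc1 NM_001271579 9 and the third Phc2 start (NM_018774) 2. The GC box letters were in 8 of the 10 promoters (35.7% of all promoters), CACGTG in 4 (7.2%), CCAAT in 4 (37.4%), and ATTTGCAT and CCGGAAG in 1 each (1.7% and 8.9%). TATAAA (13.6%) and TTTGGCGC (0.5%) were in none. The window of Phc1 NM_001271579 held none of these letters. NM_001042623, which stands for Phc1 elsewhere, starts at 122289675 on mm9, outside that window, and its promoter was not examined. Several promoters of 1 gene are counted separately here, and a match is only a description of letters.

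The main Cbx and Phc paralogues differed between SSCs and MASCs, while neither Ring gene passed the test. Of the 9 members, 3 were higher in MASCs (Cbx6, Cbx7 and Phc1), 4 were lower (Bmi1, Cbx2, Cbx8 and Phc2) and 2 (Rnf2 and Ring1) did not pass the test. Of all 32661 transcripts tested, 11.4% were called higher and 19.5% lower. Of the 20119 transcripts with at least 1 FPKM in at least 2 samples, to which all 9 members belong, 17.03% were called higher and 26.54% lower. With a log2 difference of at least 1 as a further condition, 2 members were higher (6.04% of all transcripts) and 4 lower (9.60%). The test was limma on log2(FPKM + 1), fitted to 12 lines of SSCs, MASCs and ESCs together, with adjusted p under 0.05 (Benjamini-Hochberg over all transcripts) as the rule, and log2 differences are on that scale, which understates the change of low genes. The median difference of the 9 members was -0.37, and that of those 20119 transcripts was -0.12. The latter median was 0 after quantile normalization and -0.40 after FPKM was rescaled to an equal sum in each sample, and under both every one of the 7 called members kept its direction and its call. The 6 MASC and 4 SSC lines did not overlap in 7 of the 9 members, while 25.3% of all transcripts did not overlap. The labels name a strain but no animal for each line, so for lines of 1 strain the p-values measure a spread that may be technical. C57Bl/6J held no MASC line and Gt(ROSA26)Sor-lacZ no SSC line, so differences within a strain could be had for Oct4-GFP (2 MASC and 2 SSC lines) and 129mix (2 and 1) only. SSCs were kept with GDNF, FGF and EGF, and MASCs, ESCs and iPS cells with leukaemia inhibitory factor. Differences of SSCs from these cells therefore cannot be told apart from those of culture medium.

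**Figure D1:**
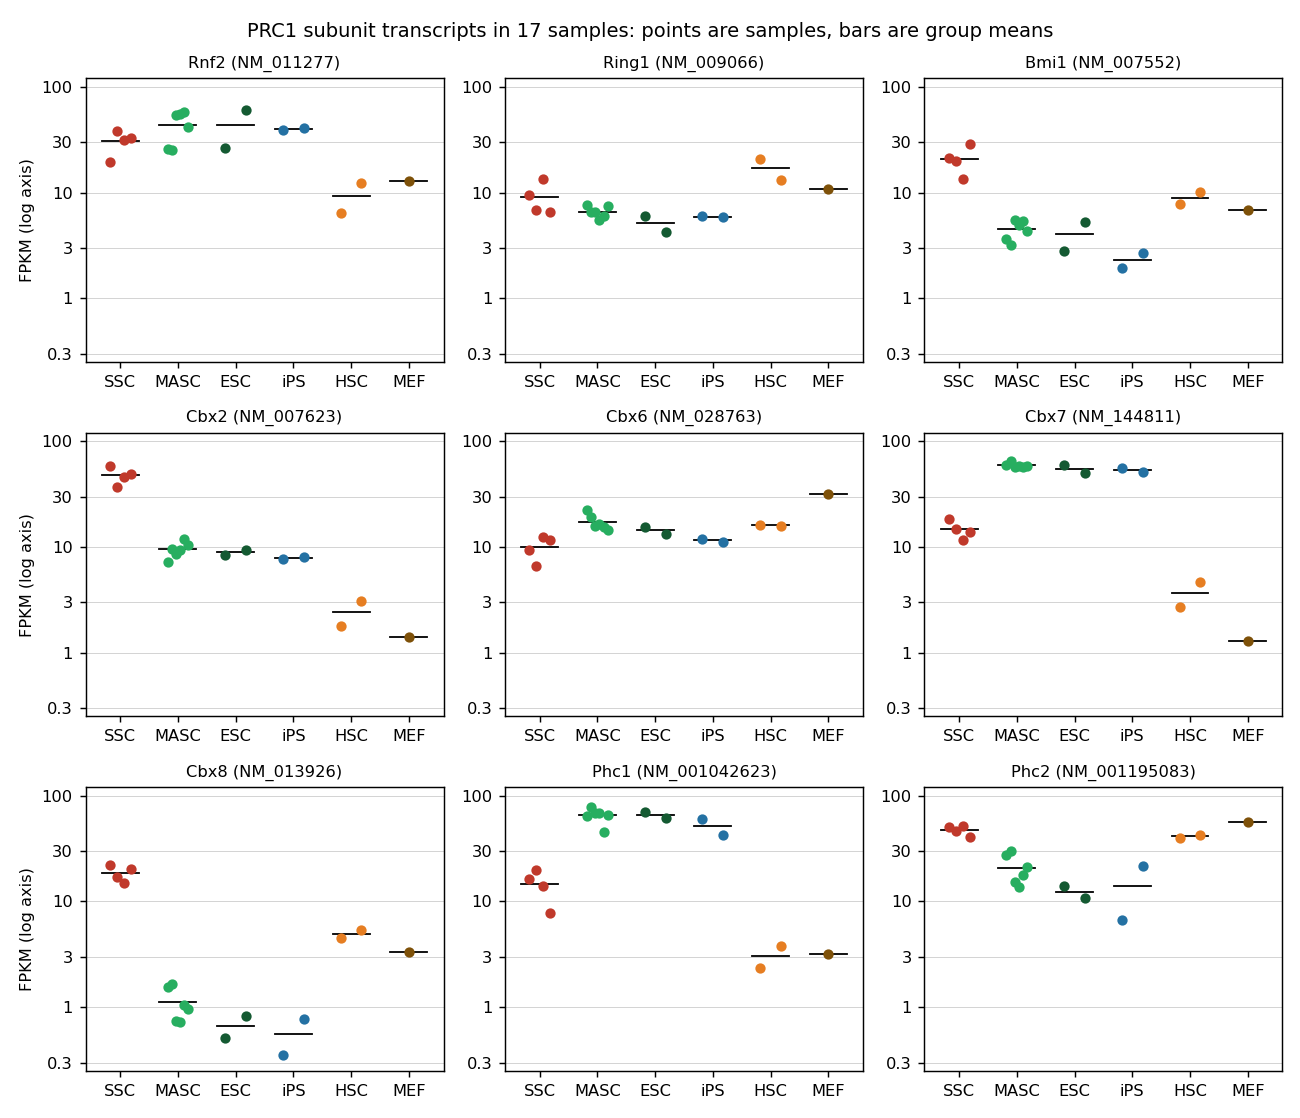
Level of each PRC1 member in 17 samples. Each panel is 1 gene with its transcript, the horizontal axis gives the cell type, the vertical axis is FPKM on a log scale, points are samples and bars are group means. Cbx7 and Phc1 stand at 42.1 FPKM or more in every MASC, ESC and iPS cell line and under 20 FPKM elsewhere, while Bmi1, Cbx2 and Cbx8 are highest in the 4 SSC lines.

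Rnf2 encodes RING1B, 1 of the RING1 ligases. Rnf2 (NM_011277) was at 19.6, 37.9, 31.6 and 32.9 FPKM in the 4 SSC lines and at 25.1 to 57.3 FPKM (median 48.0) in the 6 MASC lines. The 2 groups overlapped, and the lowest MASC lines were the Oct4-GFP lines MASC.1 at 26.0 FPKM and MASC.2 at 25.1 FPKM, as ESC.1 of the same strain was the lower ESC line at 26.5 FPKM against 60.1 FPKM in ESC.2. The difference between MASCs and SSCs was 0.45 (95% confidence interval -0.30 to 1.204, adjusted p = 0.37). Within Oct4-GFP it was -0.10 and within 129mix 0.72.

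Ring1 encodes RING1A, the other ligase. Ring1 (NM_009066) was at 9.49, 6.88, 13.4 and 6.60 FPKM in SSC lines and at 5.50 to 7.57 FPKM (median 6.51) in MASC lines. The ranges overlapped, with SSC.3 the highest. The difference was -0.37 (95% confidence interval -0.77 to 0.04, adjusted p = 0.16). Among the alternatives tried it passed the test only when FPKM was rescaled to an equal sum in each sample (-0.69, adjusted p = 0.0054). Rnf2 made up 76.4% ± 8.85 (SD, n = 4) of the summed FPKM of both genes in SSCs and 85.4% ± 5.87 (n = 6) in MASCs.

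Bmi1 encodes PCGF4, the PCGF protein known from the self-renewal of adult stem cells. Bmi1 (NM_007552) was at 21.2, 19.9, 13.4 and 28.6 FPKM in SSC lines. It was at 3.20 to 5.53 FPKM (median 4.64) in MASC lines, and no MASC line reached the lowest SSC line. It fell by 1.96 on the log2 scale (SE 0.22, adjusted p = 0.00014). Within Oct4-GFP the difference was -2.29 and within 129mix -2.24.

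Other Pcgf genes differed too, in both directions. Pcgf5 (PCGF of a variant complex) went from 66.9 ± 8.71 FPKM in SSCs to 9.16 ± 2.54 FPKM in MASCs, a fall of 2.77 on the log2 scale (SE 0.18, adjusted p = 4.8e-06). Pcgf6, which is known from a variant complex that silences germ cell genes in ESCs, went from 20.0 ± 5.55 to 44.1 ± 10.1 FPKM (log2 difference 1.11, SE 0.23, adjusted p = 0.0047). Pcgf2 (Mel18), the close relative of Bmi1 in canonical PRC1, was at 23.2 ± 1.09 and 29.3 ± 6.87 FPKM and did not pass the test (0.29, adjusted p = 0.21). Bmi1 held 12.4% ± 2.19 of the summed FPKM of the 6 Pcgf genes in SSCs and 4.01% ± 0.726 in MASCs. Pcgf5 went from 40.5% ± 2.21 to 8.14% ± 2.03, and Pcgf6 from 11.9% ± 2.11 to 39.2% ± 7.48. The Pcgf sum was 165 ± 21.7 FPKM in SSCs and 112 ± 7.14 FPKM in MASCs.

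Cbx7 encodes the CBX protein that prevails in ESCs. Cbx7 (NM_144811) was at 18.5, 14.7, 11.8 and 13.8 FPKM in SSC lines and at 56.7 to 65.0 FPKM (median 58.4) in MASC lines. The MASC lines lay close together and all stood far above the SSC lines, of which SSC.1, the SSC line with the most Pou5f1 RNA, was the highest. Cbx7 rose by 1.95 on the log2 scale (SE 0.10, adjusted p = 1.5e-06), and by 2.06 without SSC.1. Lines of Oct4-GFP alone differed by 1.85 and those of 129mix by 1.99.

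Cbx2 encodes a CBX protein that compacts chromatin and is needed for male sex determination. Cbx2 (NM_007623) was at 58.7, 37.2, 46.1 and 49.3 FPKM in SSC lines and at 7.21 to 11.9 FPKM (median 9.48) in MASC lines. It was the most abundant Cbx member in each SSC line, and the groups did not overlap. It fell by 2.21 on the log2 scale (SE 0.14, adjusted p = 4.6e-06). Oct4-GFP lines alone gave a difference of -2.36 and 129mix lines -2.33.

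Cbx8 encodes a CBX protein that is taken up by PRC1 when ESCs differentiate. Cbx8 (NM_013926) was at 22.2, 16.95, 15.1 and 20.3 FPKM in SSC lines and at 0.720 to 1.65 FPKM (median 1.01) in MASC lines. Every SSC line stood far above every MASC line. It fell by 3.22 on the log2 scale (SE 0.16, adjusted p = 8.7e-07), and by 4.00 with a pseudocount of 0.1. Within Oct4-GFP the difference was -2.97 and within 129mix -3.62.

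Cbx6 encodes a less studied CBX protein. Cbx6 (NM_028763) was at 9.36, 6.58, 12.4 and 11.7 FPKM in SSC lines and at 14.5 to 22.2 FPKM (median 16.2) in MASC lines. The highest values were in MASC.1 and MASC.2, and the lowest MASC line stood just above the highest SSC line. The rise was 0.75 on the log2 scale (SE 0.17, adjusted p = 0.0084). MEF held 31.4 FPKM of Cbx6. MASC.1 and SSC.3, the highest line of each group, held 841 and 736 FPKM of fibroblast markers. With the libraries of high fibroblast markers left out the rise was 0.81, and after rescaling it was 0.47 (adjusted p = 0.046). Lines of Oct4-GFP alone differed by 1.30 and those of 129mix by 0.44. Npcd, which overlaps Cbx6, had a difference of -0.09 (SE 0.50, adjusted p = 0.99).

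Among the 4 Cbx members the leading gene was Cbx2 in SSCs and Cbx7 in MASCs. Cbx7 held 16.2% ± 2.61 (SD, n = 4) of their summed FPKM in SSCs and 67.9% ± 1.45 (n = 6) in MASCs, and Cbx2 held 52.3% ± 2.23 and 11.01% ± 2.09. Cbx8 went from 20.5% ± 2.04 to 1.26% ± 0.382 and Cbx6 from 11.04% ± 2.89 to 19.8% ± 2.58. The sum of the 4 genes was 91.1 ± 14.2 FPKM in SSCs and 87.0 ± 5.07 FPKM in MASCs, with overlapping ranges. The FPKM of all transcripts summed to 427143 to 517480 in SSC lines and to 557520 to 665975 in MASC lines. How the Cbx sums compare therefore depends on the scaling, and an equal level in both cell types cannot be read from them. No share of a Cbx member overlapped between SSC and MASC lines. The shares are descriptions and were not tested.

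The Cbx members of a locus moved the same way. At the chromosome 11 locus Cbx2 and Cbx8 both fell. At the chromosome 15 locus Cbx6 and Cbx7 both rose. Apobec3, which encodes a cytidine deaminase that restricts retroviruses and lies between them, rose by 2.98 (SE 0.41, adjusted p = 0.00043), and D730005E14Rik, which overlaps Apobec3 and had a mean of 0.218 FPKM, by 0.28 (SE 0.06, adjusted p = 0.0059). Npcd, Nptxr (0.08, SE 0.42, adjusted p = 0.98) and Dnal4 (-0.11, SE 0.10, adjusted p = 0.47), at or beyond Cbx6, did not pass the test. This arrangement and these neighbours were chosen after the values of the Cbx genes were seen.

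**Figure D2:**
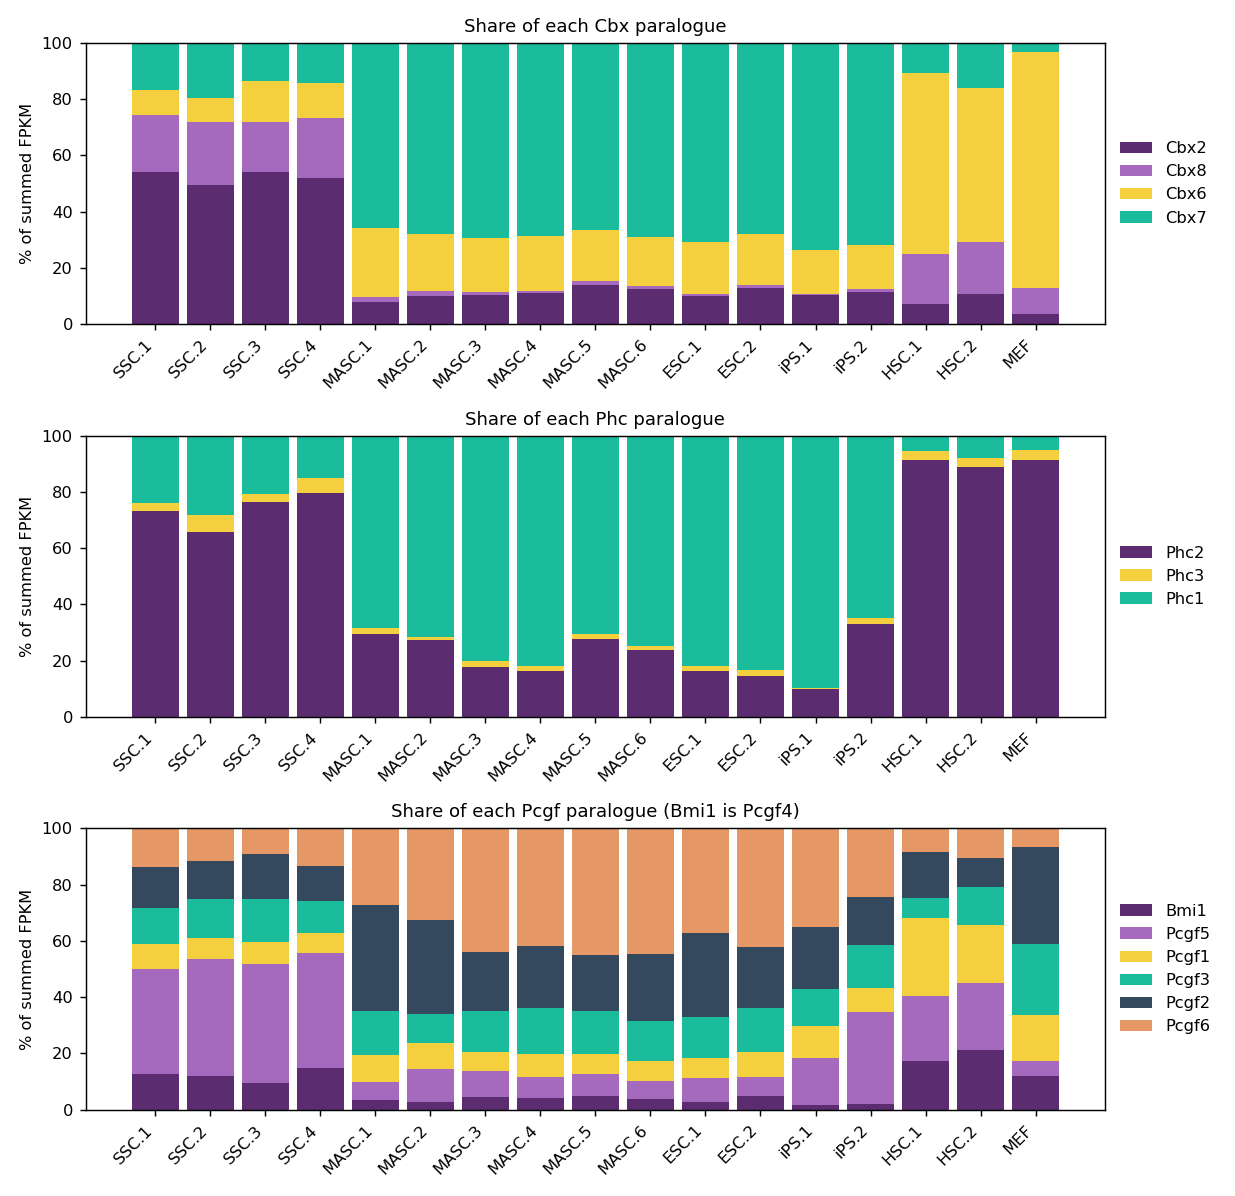
Share of each Cbx member and each Phc and Pcgf paralogue in the summed FPKM of those shown. Each bar is 1 sample, ordered by cell type, and the vertical axis is percent of that sum. Cbx7 fills 65.7 to 69.3% of the Cbx bar in MASC lines and 13.8 to 19.5% in SSC lines, Phc1 fills 68.5 to 82.0% and 15.3 to 28.4% of the Phc bar, and HSC and MEF bars differ from both. Each gene is shown by its 1 chosen transcript. With transcripts summed, Phc1 held 80.3 to 90.4% in MASC lines and 36.0 to 47.6% in SSC lines.

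Phc1 encodes a polyhomeotic protein that joins PRC1 complexes through its SAM domain. Phc1 (NM_001042623) was at 16.5, 19.9, 14.0 and 7.74 FPKM in SSC lines and at 45.4 to 79.0 FPKM (median 66.8) in MASC lines. The groups did not overlap, and SSC.4 was the lowest line. It rose by 2.15 on the log2 scale (SE 0.23, adjusted p = 1e-04). Oct4-GFP lines alone gave a difference of 1.92 and 129mix lines 2.99.

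Phc2 encodes its paralogue. Phc2 (NM_001195083) was at 50.3, 46.1, 51.5 and 40.5 FPKM in SSC lines and at 13.7 to 30.2 FPKM (median 19.4) in MASC lines. The groups did not overlap, and the highest MASC lines were MASC.1 at 27.6 FPKM and MASC.2 at 30.2 FPKM, both Oct4-GFP. It fell by 1.19 on the log2 scale (SE 0.22, adjusted p = 0.0025). Within Oct4-GFP the difference was -0.72 and within 129mix -1.43. MASC.1 also held 841 FPKM of fibroblast markers and MEF held 56.0 FPKM of Phc2. With the 5 libraries of high fibroblast markers left out the fall was 1.16 (adjusted p = 0.044).

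The leading Phc gene was Phc2 in SSCs and Phc1 in MASCs. Phc1 held 22.1% ± 5.51 of the summed FPKM of the 3 Phc genes in SSCs and 74.6% ± 5.46 in MASCs, and Phc2 held 73.7% ± 6.05 and 23.7% ± 5.47. Phc3 held 4.20% ± 1.58 and 1.68% ± 0.510. With all transcripts of each gene summed, the share of Phc1 was higher in both groups, 41.5% in SSCs and 86.0% in MASCs, and the direction was the same.

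The transcripts of Phc1 and Phc2 did not all move alike. NM_001271579, the Phc1 transcript whose promoter is shown above, was at 4.88, 16.4, 4.18 and 2.95 FPKM in SSC lines and at 28.1 to 64.8 FPKM (median 47.5) in MASC lines, and rose by 2.79 (SE 0.39, adjusted p = 5e-04). NM_007905 starts where NM_001042623 does. On average it held 42.5% of the Phc1 FPKM in SSCs against 36.2% for NM_001042623, and 17.4% against 46.0% in MASCs. NM_001042623 stands for Phc1 here by its mean over all 17 samples and was not the leading Phc1 transcript in SSCs. NM_007905 was at 20.1, 11.4, 17.9 and 14.1 FPKM in SSC lines and at 10.4 to 32.5 FPKM in MASC lines. It did not pass the test (0.49, 95% confidence interval -0.23 to 1.20, adjusted p = 0.30). The long Phc2 transcript NM_001195130 was at 4.60, 4.34, 3.71 and 4.76 FPKM in SSC lines and at 0.0181 to 0.876 FPKM in MASC lines. It fell by 2.06 (SE 0.19, adjusted p = 3.2e-05). The third Phc2 transcript, NM_018774, made up at most 2.95% of Phc2 in any sample. How FPKM was divided among transcripts of 1 gene was estimated by Cufflinks and is less certain than their sum. The sum over transcripts of Phc1 rose by 1.85 (SE 0.15, adjusted p = 1.6e-05) and that of Phc2 fell by 1.28 (SE 0.22, adjusted p = 0.0013).

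**Figure D3:**
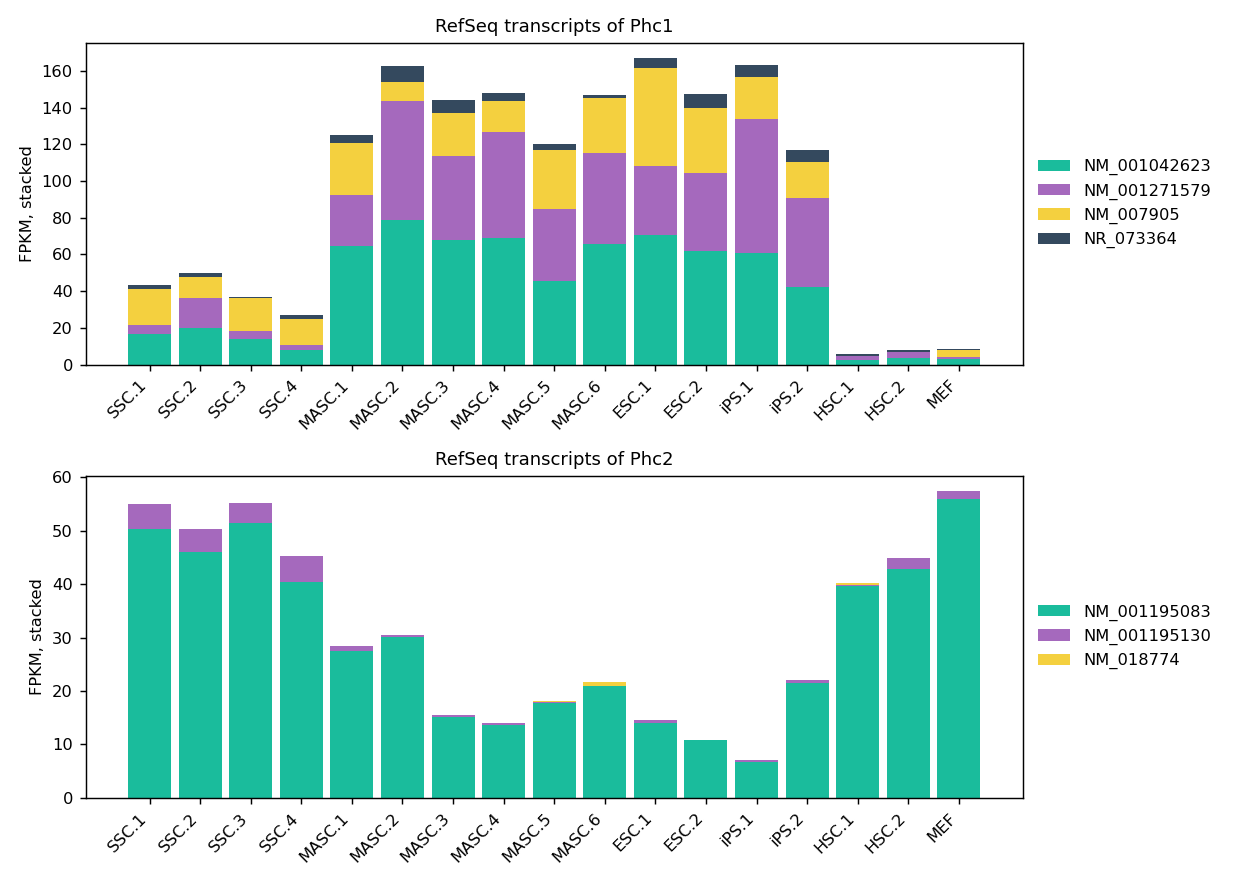
RefSeq transcripts of Phc1 and Phc2 by sample. Bars are samples ordered by cell type, the vertical axis is FPKM, and colours stack the transcripts of each gene. The long Phc2 transcript NM_001195130 is visible at 3.71 to 4.76 FPKM on top of the short one in the 4 SSC lines, and Phc1 NM_001271579 grows from 2.95 to 16.4 FPKM in SSC lines to 28.1 to 64.8 FPKM in MASC lines.

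Other PRC1 genes were called in both directions, more of them lower in MASCs. Of 17 further PRC1 genes, 3 rose (Pcgf6, Rybp and L3mbtl2) and 10 fell (Scml2, Pcgf5, Bcorl1, Auts2, Scmh1, Yaf2, E2f6, Phc3, Pcgf1 and Pcgf3). The other 4 (Pcgf2, Kdm2b, Bcor and Mga) did not pass the test, and the median difference of the 17 genes was -0.49. All transcripts were called higher in 11.4% and lower in 19.5%, and the expressed ones in 17.03% and 26.54%. With a log2 difference of at least 1 as a further condition, 2 of the 17 genes were higher and 4 lower (6.04% and 9.60% of all transcripts). Scml2, a germline Polycomb protein, was at 58.6 ± 5.47 FPKM in SSCs and at 0.503 ± 0.441 FPKM in MASCs, and fell by 5.36 (SE 0.22, adjusted p = 3.1e-07). Bcorl1, a partner in variant PRC1, fell from 11.7 ± 3.06 to 1.13 ± 0.443 FPKM (log2 difference -2.56, SE 0.19, adjusted p = 1.1e-05). L3mbtl2, a partner of PCGF6, rose from 21.4 ± 6.04 to 43.9 ± 5.003 FPKM (log2 difference 1.04, SE 0.16, adjusted p = 0.00098). Rybp, which takes the place of CBX in variant complexes, rose from 25.1 ± 12.1 to 45.5 ± 7.25 FPKM (log2 difference 0.93, SE 0.25, adjusted p = 0.019), whereas its paralogue Yaf2 fell from 9.30 ± 2.93 to 4.73 ± 1.21 FPKM (log2 difference -0.83, SE 0.22, adjusted p = 0.017).

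Among 5 genes of the H2A deubiquitinases, which remove the PRC1 mark, Asxl2 rose, Bap1 and Mysm1 fell, and Asxl1 and Usp16 did not pass the test. Against the same shares of all transcripts (11.4% higher and 19.5% lower) these were 1 higher and 2 lower of 5, and 0 of the 5 had a log2 difference of at least 1 in either direction. Cdkn2a, the classical target that BMI1 and CBX7 silence, was lower in MASCs. Its Arf transcript (NM_009877) was at 94.1, 69.5, 120.5 and 76.5 FPKM in SSC lines and at 3.57 to 21.4 FPKM (median 5.41) in MASC lines, the highest being the Oct4-GFP lines. It fell by 3.32 (SE 0.49, adjusted p = 0.00066). Its Ink4a transcript NM_001040654 shares exons with it, ranged from 0.586 to 73.0 FPKM among SSC lines and from 1.23 to 22.7 FPKM among MASC lines, and did not pass the test (-0.99, SE 1.10, adjusted p = 0.58).

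**Figure D4:**
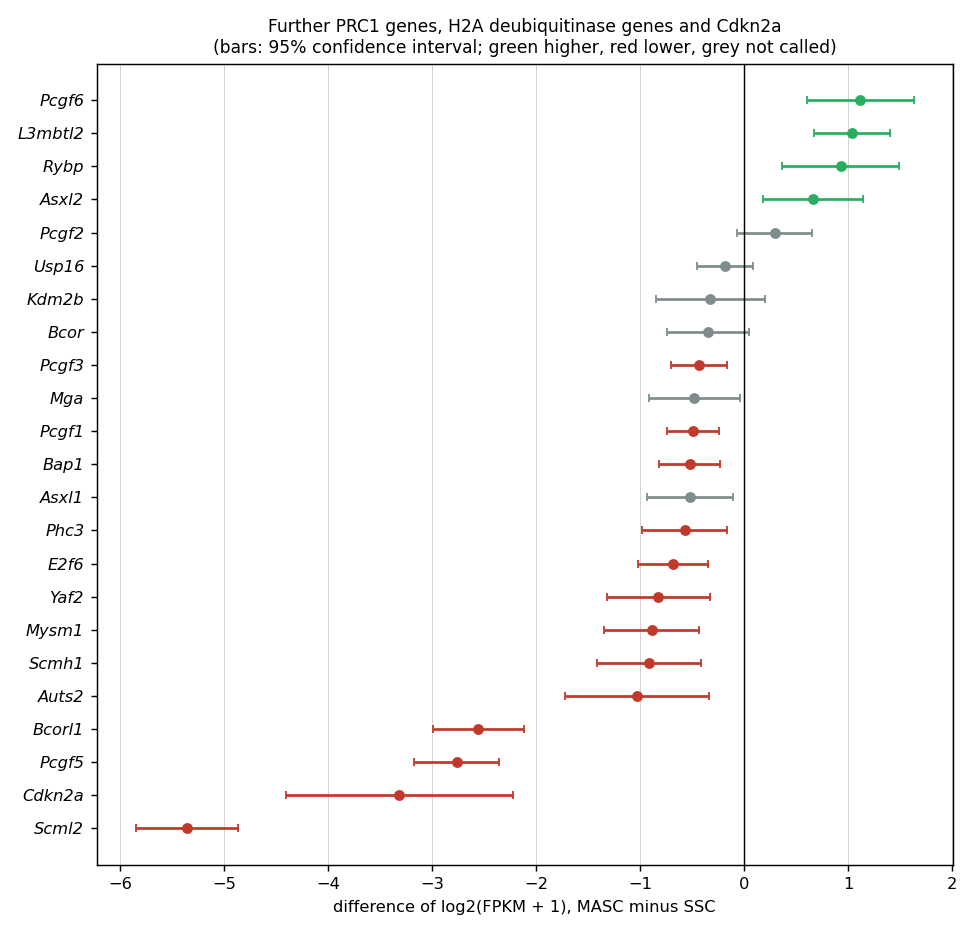
Difference between MASCs and SSCs for 17 further PRC1 genes, 5 H2A deubiquitinase genes and Cdkn2a. The horizontal axis is the difference of log2(FPKM + 1), points are limma estimates, bars are 95% confidence intervals, and colours give the call. Scml2 (-5.36), Cdkn2a (-3.32), Pcgf5 (-2.77) and Bcorl1 (-2.56) lie far to the left, and Pcgf6 (1.11), L3mbtl2 (1.04), Rybp (0.93) and Asxl2 were called higher.

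ESCs differed from SSCs in 6 of the 9 members. Against SSCs, 2 members were higher in ESCs (7.67% of all transcripts and 11.36% of the expressed ones were), namely Cbx7 (1.84, SE 0.14, adjusted p = 2.6e-05) and Phc1 (2.18, SE 0.31, adjusted p = 0.001). Lower in ESCs were 4 members (13.8% of all transcripts and 19.96% of the expressed ones), namely Bmi1 (-2.11), Cbx2 (-2.28), Cbx8 (-3.55) and Phc2 (-1.85). Cbx6 was at 15.5 and 13.3 FPKM in the ESC lines and did not pass the test (0.52, 95% confidence interval -0.003 to 1.04). ESC and SSC lines did not overlap in 8 of 9 members (37.6% of all transcripts). The call for Phc1 was lost with the libraries of high fibroblast markers left out, while its difference was 2.22. Only ESC.2, SSC.2 and SSC.4 then remained for this comparison. Ring1 (-0.69, adjusted p = 0.075) was called lower without SSC.4 (-0.81, adjusted p = 0.044) and after rescaling (-1.05, adjusted p = 0.0041). This comparison shares its SSC lines with that of MASCs and SSCs.

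Between MASCs and ESCs no member was called in either direction, and 0.00306% of all transcripts were called higher and 0.0276% lower in MASCs. At an unadjusted p under 0.05 in limma, 1 member, Phc2, differed. None of the 9 members was free of overlap between the groups (5.62% of all transcripts). The differences and their 95% confidence intervals were 0.11 (-0.18 to 0.40) for Cbx7, 0.07 (-0.34 to 0.48) for Cbx2, -0.04 (-0.70 to 0.63) for Phc1 and 0.03 (-0.92 to 0.99) for Rnf2. Phc2 was at 13.9 and 10.7 FPKM in ESC lines, and its interval, 0.05 to 1.29, lay above 0 with an adjusted p of 1. The interval for Cbx8 was -0.12 to 0.77 and that for Bmi1 -0.48 to 0.79. With 2 ESC lines these intervals leave room for differences of the size just given.

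HSCs had low levels of Cbx7, Cbx2 and Phc1. Cbx7 was at 2.73 and 4.65 FPKM, Cbx2 at 1.78 and 3.09 FPKM and Phc1 at 2.38 and 3.77 FPKM in the 2 HSC cultures, each below every SSC, MASC, ESC and iPS cell line. Ring1 was at 20.9 and 13.2 FPKM and Rnf2 at 6.39 and 12.2 FPKM, so that Ring1 was the more abundant ligase in both cultures (64.3% ± 17.4 of the sum). The sum of the 4 Cbx members was led by Cbx6 (59.6% ± 6.88), and Phc2 held 90.2% ± 1.73 of the Phc sum.

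The HSC comparisons were made in a fit over all 17 samples in 6 groups. Against SSCs, 2 members were higher (12.7% of all transcripts and 17.42% of the expressed ones), Ring1 (0.86, SE 0.25, adjusted p = 0.018) and Cbx6 (0.66, SE 0.21, adjusted p = 0.03), and 6 were lower (20.7% of all transcripts and 30.01% of the expressed ones). The largest falls were in Cbx2 (-3.84, SE 0.20, adjusted p = 4.1e-08), Phc1 (-1.88, SE 0.31, adjusted p = 0.00055) and Cbx7 (-1.76, SE 0.17, adjusted p = 7.3e-06). Without HSC.1 the calls for Rnf2 (-1.22, adjusted p = 0.14), Ring1 (0.55, adjusted p = 0.22), Bmi1 (-0.94, adjusted p = 0.093) and Cbx6 (0.64, adjusted p = 0.13) were lost. The call for Cbx6 was also lost without HSC.2 (adjusted p = 0.10) and without SSC.1 (adjusted p = 0.056), and neither higher call held when FPKM was rescaled to an equal sum (adjusted p = 0.073 for Ring1 and 0.33 for Cbx6). HSC and SSC samples did not overlap in 7 of 9 members (43.0% of all transcripts).

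Against MASCs, 3 members were higher in HSCs (14.8% of all transcripts and 19.6% of the expressed ones), Ring1 (1.23, SE 0.23, adjusted p = 0.0016), Bmi1 (0.85, SE 0.27, adjusted p = 0.03) and Cbx8 (1.499, SE 0.19, adjusted p = 9.8e-05). Lower were 4 members (16.8% of all transcripts and 25.94% of the expressed ones), Cbx7 (-3.71, SE 0.16, adjusted p = 5.3e-09), Phc1 (-4.03, SE 0.29, adjusted p = 7.9e-07), Rnf2 (-2.09, SE 0.41, adjusted p = 0.002) and Cbx2 (-1.63, SE 0.19, adjusted p = 4.2e-05). Phc2 differed by 1.00 (95% confidence interval 0.21 to 1.80, adjusted p = 0.056) and was called without MASC.1, MASC.2, iPS.1 or iPS.2, with adjusted p from 0.014 to 0.046, and with its transcripts summed (1.02, adjusted p = 0.044). The call for Bmi1 was lost without HSC.1 (adjusted p = 0.062), HSC.2 (0.23) or MASC.1 (0.05). The Bmi1 call was also lost after rescaling (0.81, adjusted p = 0.11) and with replicate number as a factor (1.02, adjusted p = 0.068). With the libraries of high fibroblast markers left out, among them HSC.2, Bmi1 differed by 0.64. Phc2 was also called with the filter of 1 FPKM in 2 samples (adjusted p = 0.03) and after quantile normalization (adjusted p = 0.044). Leaving out an iPS cell line kept its difference at 1.00 and changed only the spread shared by the groups. The groups did not overlap in 8 of 9 members (41.1% of all transcripts).

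iPS cells differed from MEF in Cbx and Phc genes too. Cbx7 was at 1.29 FPKM in MEF and at 55.9 and 51.1 FPKM in the iPS cell lines, and Phc1 was at 3.22 FPKM in MEF and at 60.7 and 42.1 FPKM in iPS cells. Cbx2 was at 1.40 FPKM in MEF and at 7.74 and 8.02 FPKM in iPS cells. These 3 members were called higher in iPS cells (11.4% of all transcripts and 17.38% of the expressed ones), by 4.57 (SE 0.24, adjusted p = 1.3e-07), 3.61 (SE 0.44, adjusted p = 0.00015) and 1.89 (SE 0.29, adjusted p = 0.00067). The single MEF sample, which held the blood markers given above, is assumed in this fit to vary like the other groups.

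Called lower in iPS cells were 4 members (10.3% of all transcripts and 13.18% of the expressed ones). Cbx6 was at 31.4 FPKM in MEF and at 12 and 11.1 FPKM in iPS cells (-1.37, SE 0.30, adjusted p = 0.0065). Cbx8 was at 3.34 FPKM in MEF and at 0.350 and 0.775 FPKM in iPS cells (-1.49, SE 0.29, adjusted p = 0.0035). Phc2 was at 56.0 FPKM in MEF and at 6.65 and 21.6 FPKM in iPS cells (-2.12, SE 0.55, adjusted p = 0.016), and without iPS.1 its call was lost (-1.34, adjusted p = 0.082), as it was with the libraries of high fibroblast markers left out (adjusted p = 0.061). Ring1 (-0.78, adjusted p = 0.15) was called lower with those libraries left out (adjusted p = 0.0064) and after rescaling (-1.01, adjusted p = 0.022). Bmi1 was at 6.82 FPKM in MEF and at 1.94 and 2.70 FPKM in iPS cells (-1.25, SE 0.40, adjusted p = 0.047). Its call was lost without iPS.1 (-1.08, adjusted p = 0.19), iPS.2 (-1.41, adjusted p = 0.07), MASC.1, MASC.3, MASC.4, MASC.5, MASC.6, SSC.1, SSC.2, HSC.1 or HSC.2. Leaving out the libraries of high fibroblast markers, or 1 MASC, SSC or HSC line, removed no iPS or MEF sample. It left these differences unchanged, and only the spread shared by all groups changed. With 1 MEF sample, 77.5% of all transcripts did not overlap between MEF and iPS samples, so the lack of overlap in all 9 members says little.

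**Figure D5:**
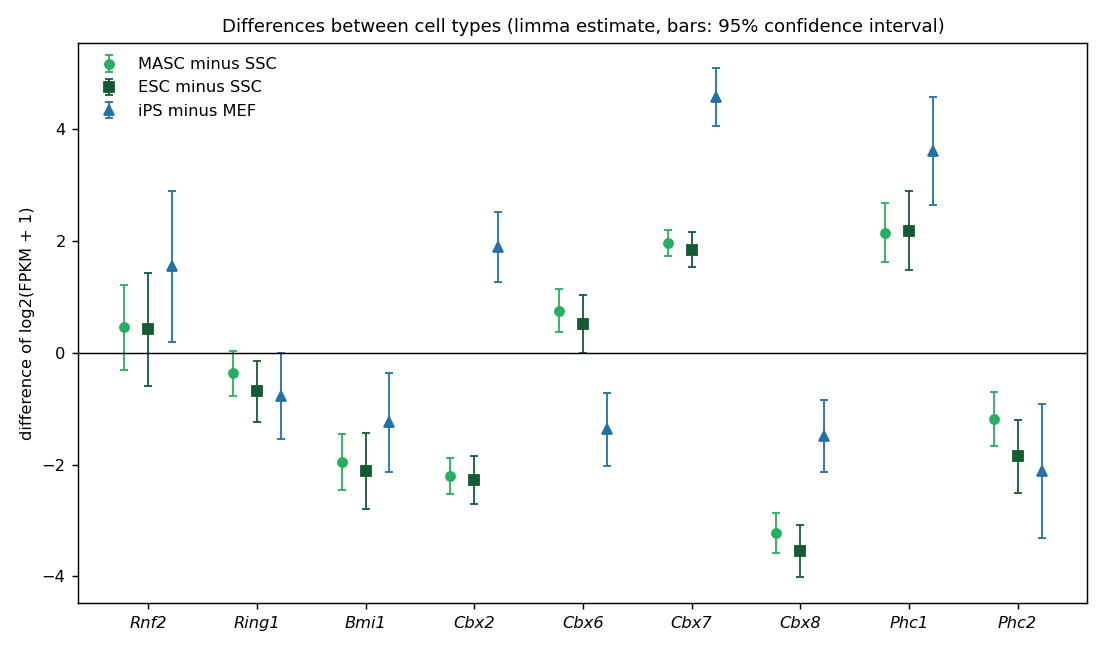
Difference of each PRC1 member between cell types. The horizontal axis lists the 9 genes, the vertical axis is the difference of log2(FPKM + 1), points are limma estimates and bars are 95% confidence intervals. Circles (MASCs minus SSCs) and squares (ESCs minus SSCs) lie on the same side of 0 for every gene, whereas for Cbx2 and Cbx6 the triangles (iPS cells minus MEF) lie on the other side of 0.

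The change from SSC to MASC and that from MEF to iPS cell were then compared by a test of their difference. Both are differences between separate samples. Of the 9 members, 1 had a higher change from SSC to MASC (8.23% of all transcripts and 10.36% of the expressed ones) and 3 a lower one (12.5% and 18.82%). Cbx2 fell from SSC to MASC and rose from MEF to iPS cell (difference of the changes -4.10, SE 0.32, adjusted p = 5.8e-06), and Cbx6 rose in the first and fell in the second (2.12, SE 0.34, adjusted p = 0.00099). Cbx7 rose in both, but less from SSCs (-2.62, SE 0.27, adjusted p = 4.4e-05), and Cbx8 fell in both, but more from SSCs (-1.74, SE 0.33, adjusted p = 0.003). With a pseudocount of 0.1 the call for Cbx8 was lost (-1.54, adjusted p = 0.076). Phc1 rose in both and the difference of its changes, -1.47, did not pass the test (95% confidence interval -2.56 to -0.38, adjusted p = 0.058). It was called without SSC.4 (-1.72, adjusted p = 0.008) and with the transcripts of Phc1 summed (-2.01, adjusted p = 0.0014). The difference for Phc1 was also called with a pseudocount of 0.1 (-1.71, adjusted p = 0.041) and after rescaling (-1.68, adjusted p = 0.035). With the filter of 1 FPKM in 2 samples it was called too (-1.47, adjusted p = 0.037). For Rnf2, Ring1, Bmi1 and Phc2 the adjusted p was 0.33, 0.58, 0.34 and 0.36, and Phc2 was called without iPS.2 (1.71, adjusted p = 0.04) and Ring1 with the libraries of high fibroblast markers left out (0.71, adjusted p = 0.021).

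Set in order over the 6 cell types, MASCs, ESCs and iPS cells were neighbours for every member but Cbx6. For Cbx7 the order of mean FPKM was MASC 59.1, ESC 54.8, iPS 53.5, SSC 14.7, HSC 3.69 and MEF 1.29, and ESC overlapped both MASC and iPS. For Phc1 it was ESC 66.2, MASC 65.3, iPS 51.4, SSC 14.5, MEF 3.22 and HSC 3.07. Here MASC overlapped both ESC and iPS, ESC and iPS did not overlap, and the last 2 did. For Cbx8 it was SSC 18.7, HSC 4.90, MEF 3.34, MASC 1.11, ESC 0.671 and iPS 0.563, with overlap among the last 3. For Bmi1 it was SSC 20.8, HSC 8.89, MEF 6.82, MASC 4.51, ESC 4.03 and iPS 2.32, with overlap only between MASC and ESC.

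For Cbx2 the order was SSC 47.8, MASC 9.53, ESC 8.96, iPS 7.88, HSC 2.43 and MEF 1.40, and MASC overlapped both ESC and iPS. For Phc2 it was MEF 56.0, SSC 47.1, HSC 41.3, MASC 20.9, iPS 14.1 and ESC 12.3, with overlap between SSC and HSC and among the last 3. Cbx6 was highest in MEF (31.4) and lowest in SSC (10.0), with MASC (17.3) overlapping HSC (16.0) and ESC (14.4), and iPS cells (11.5) overlapping SSC. Rnf2 ran from 43.3 in MASC and ESC to 9.30 in HSC, and Ring1 from 17.1 in HSC to 5.11 in ESC. By their highest mean the members fell into those highest in pluripotent cells (Rnf2, Cbx7 and Phc1), those highest in SSCs (Bmi1, Cbx2 and Cbx8) and those highest in MEF or HSC (Cbx6, Phc2 and Ring1).

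The genes whose levels ran most like each member were sought among the 20119 expressed transcripts by Pearson's r of log2(FPKM + 1) over the 17 samples. These r are descriptions, since samples of a cell type share much of their RNA. Cbx7 ran most like Msh6 (r = 0.978) and Rpp25 (0.977), and Phc1 most like Fbxo15 (0.977) and Cbx7 (0.974). Cbx2 ran most like Pogz (0.993) and Spag1 (0.989), and Cbx8 most like Fam217b (0.983) and Bcorl1 (0.979). For Bmi1 they were Fam206a (0.971) and Ssr1 (0.968), and for Rnf2 Trim23 (0.972) and Ireb2 (0.970). For Phc2 they were Ube2j1 (0.953) and Map7d1 (0.950), for Ring1 Sema4c (0.959) and Gga1 (0.947) and for Cbx6 Hmg20b (0.921) and Cndp2 (0.916). Between members, Bmi1 and Cbx8 had r = 0.943, Rnf2 and Ring1 -0.852 and Phc1 and Phc2 -0.743.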

How the data were processed

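RNA-seq libraries of 17 mouse samples were analysed from the transcript tables that the authors deposited. Per the study's methods, reads were aligned to mm9 with TopHat2 and FPKM was estimated with Cufflinks, with upper-quartile and GC normalization and without PCR duplicates and reads mapping to several places. The version of Cufflinks and the use of strand are not given in the sources used here. The deposited FPKM values are per length and per depth, and each file also gives the coverage of a transcript as deposited by the authors, which was used only as a measure of depth. Read counts were not used here, so no count test was run.

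Of 33262 rows per file, 32661 had a RefSeq identifier found on 1 row, and 601 further loci were left out. FPKM was tested as log2(FPKM + 1) with limma 3.58.1 in R 4.3.3, and p-values were adjusted over all 32661 transcripts for each comparison. SSC, MASC and ESC comparisons used 12 lines, and those with HSC, iPS or MEF all 17 samples. The members and gene lists were chosen with earlier results of these data known. Named were the 9 members, at most 10 genes with values from the 17 further PRC1 and 5 deubiquitinase genes, Cdkn2a, the 2 genes most like each member and the cell type markers. A further item planned for a list and a share is not reported here. The fit was tested on simulated data of 32661 transcripts. For MASCs against SSCs it recovered 38 of 100 transcripts changed by 1 and 74 of 100 changed by 2 on the log2 scale. There were 11 false calls among the unchanged transcripts. The changed ones were drawn from transcripts with a mean log2(FPKM + 1) above 1. Far fewer transcripts were changed there than were called in the data (3739 higher and 6360 lower). Since the adjustment of p depends on that number, these rates do not give the power of the reported test. Alternatives were a pseudocount of 0.1, a filter of 1 FPKM in 2 samples, quantile normalization, another variance model, strain or replicate number as a factor, all samples in 1 fit, transcripts summed per gene and each line left out. Rescaling FPKM to an equal sum and leaving out libraries with over 300 FPKM of fibroblast markers were added after seeing the data. No 2 files held identical values.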

Additional observations from a re-analysis of the deposited data

Results flagged for a closer look

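In the 18 groups of 4 to 6 lines of a member, Dixon's test found 2 values apart from the others of their group, and chance gives about 1 in 20 groups. Cbx7 in MASC.2, at 65.03 FPKM, was above the other MASC lines (gap of 0.659 of the range, critical value 0.625). Phc1 in MASC.5, at 45.43 FPKM, was below the other MASC lines (0.631, critical value 0.625).

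The change from SSC to MASC differed from the change from MEF to iPS cell for 4 members in the test of the difference itself (limma, 17 samples, 1 MEF sample). The difference on the log2 scale was -4.10 for Cbx2, 2.12 for Cbx6, -2.62 for Cbx7 and -1.74 for Cbx8.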

How the results depend on the processing

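The calls of the 9 members in MASCs against SSCs, 3 higher and 4 lower, held in each fit without 1 line. Over all alternatives, 196 of 198 values of that comparison kept their direction and side of the threshold, as did 194 of 198 for ESCs minus SSCs, 180 of 198 for MASCs minus ESCs, 214 of 225 for HSCs minus SSCs, 211 of 225 for HSCs minus MASCs, 197 of 216 for iPS cells minus MEF and 208 of 216 for the difference of the changes. These counts include fits without a line that belongs to neither group compared. There the difference itself cannot change, and only the spread shared by the groups can. The single MEF sample could not be left out of its own comparisons. Correlations between lines gave no sign that the replicate numbers pair them. Same-numbered SSC and MASC lines had r of -0.225 to 0.185 (4 pairs) and other pairs -0.322 to 0.339. Of the SSC lines, 0 of 4 correlated best with their own number. The highest r was between SSC.3 and MASC.1, which differ in strain and held the most fibroblast marker RNA of their groups. Such r cannot tell which SSC line gave rise to a MASC line. With the number as a replicate block, Cbx6 was not called in MASCs minus SSCs (0.85, adjusted p = 0.066), 1 member was higher in HSCs minus SSCs and 1 lower in iPS cells minus MEF, and calls over all transcripts in MASCs minus SSCs went from 3739 higher and 6360 lower to 2271 and 3674, in ESCs minus SSCs from 2505 and 4495 to 1272 and 2105, in HSCs minus MASCs from 4824 and 5483 to 3193 and 3598, in iPS cells minus MEF from 3356 to 2106 lower, in the difference of the changes from 2688 to 1758 higher and in MASCs minus ESCs from 1 and 9 to 0 and 2. In MASCs minus ESCs the block reversed Rnf2 (-0.42), Bmi1 (-0.0063), Cbx2 (-0.077) and Phc1 (0.28), strain as a factor Rnf2 (-0.090), Cbx2 (-0.045) and Phc1 (0.081), and leaving out the libraries of high fibroblast markers Rnf2 (-0.41), Bmi1 (-0.15) and Phc1 (0.054). Leaving these libraries out also reversed Cbx6 in HSCs minus MASCs (0.0059), left 1 member higher in ESCs minus SSCs and 1 in HSCs minus SSCs, and gave 2 higher in the difference of the changes. After rescaling, 0 members were higher in HSCs minus SSCs. Without 1 line, the members called higher in HSCs minus SSCs ranged from 0 to 2, those lower in iPS cells minus MEF from 2 to 4 and those higher in the difference of the changes from 1 to 2. Without 1 line, MASCs minus ESCs ranged from -0.54 to 0.61 for Rnf2, -0.20 to 0.51 for Bmi1, -0.0059 to 0.22 for Cbx7 and -0.13 to 0.063 for Phc1, and ESCs minus SSCs from -0.16 to 0.99 for Rnf2. With transcripts summed, the share of Phc1 was 41.45% in SSCs and 85.98% in MASCs and that of Phc2 55.42% and 12.95%. Calls over all transcripts in MASCs minus ESCs were 3 higher and 14 lower with a pseudocount of 0.1, 5 lower with the filter, 0 higher with strain as a factor or all 17 samples, 3 and 122 without the libraries of high fibroblast markers, and 1 to 4 and 6 to 104 without 1 line. Of all called transcripts, 37.0% were higher in MASCs minus SSCs (24.2% rescaled), 35.8% in ESCs minus SSCs (46.7% after quantile normalization, 21.9% rescaled), 38.1% in HSCs minus SSCs (50.4% and 26.3%) and 39.6% in the difference of the changes (51.6% after quantile normalization). The causes of these changes were not tested. Leaving out the libraries of high fibroblast markers kept only ESC.2 of the ESC lines and HSC.1 of the HSC cultures. Depth limits the low values: 1 FPKM stood for a coverage of 1.26 to 3.23, so that differences among values near or under 1 FPKM, as for Cbx8 in MASCs, ESCs and iPS cells, rest on few reads.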
